A study of Drosophila melanogaster with 2 samples.

Results

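The protein-coding genes of Drosophila melanogaster chromosome 4 were taken from the Ensembl BDGP6.54 annotation by chromosome and biotype. Of 80 such genes, 4 (RpS3A, eIF4G1, ND-49 and ATPsynbeta) were left out by a rule on symbols that removes ribosomal, translation factor and respiratory chain genes. The remaining 76 genes are described here, out of 13648 coding genes on 6 chromosome arms under the same rule. The rule itself uses no measured value. The data are chromatin immunoprecipitations with sequencing from whole embryos collected at 0 to 24 h, of transgenic flies that carry an E2f1-eGFP fusion, in 1 group of 2 biological replicates. An anti-GFP antibody was used for the precipitation, so the tagged transgene product was measured and not the untagged protein. All tissues of the embryo and all stages of this window are mixed in each library. A height therefore cannot tell apart few cells with strong binding from many cells with weak binding.

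Chromosome 4, the dot chromosome, is the smallest of the fly. It is largely packaged with heterochromatin protein HP1a and methylated H3K9, and its genes are bound by Pof, a protein that associates with this chromosome. Its genes are nonetheless transcribed, and many encode developmental regulators. E2f1 is the activating E2F of the fly. It binds DNA with its partner Dp and is best known for driving genes of S phase and the cell cycle.

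Each of 4 ranked lists of candidate regions was deposited with a thresholded set of the regions that passed the authors' limit on the irreproducible discovery rate (IDR), a rate at which a region's rank fails to recur between 2 inputs. The reproducible set and its list compare replicate 1 with replicate 2. The larger set covers the series as well, and each replicate has a list and a set of its own. A gene was called bound at the promoter where a summit lay at most 500 bp from an annotated transcription start site (TSS) and near a region where a summit lay in the gene or within 1 kb of it. Read counts are not in the deposited tables, and the depth of each library is therefore unknown. The exact 95% binomial intervals below cover counting error over genes or regions only, and neighbouring genes share regions, so genes are not independent replicates. The labels name an experiment that could serve as a control, which was not used here. No comparison of conditions exists in these samples, so shares and medians are set beside those of the other arms without a test.

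The sequences of the chromosome 4 regions on which the description turns are given first, from the RefSeq release of the dm6 assembly, plus strand, 5′ to 3′. Capitals mark a match to TATCGATA, the DNA replication-related element (DRE) bound by the factor Dref, or to GAGAG, bound by GAGA factor, whose reverse complement is CTCTC. The first 3 are whole regions that were in all 4 sets. The last 2 are the 50 bp on each side of the summits near apolpp and Asator, shown as examples of regions that were not in every set.
PlexA upstream region, chr4:1027200-1027392: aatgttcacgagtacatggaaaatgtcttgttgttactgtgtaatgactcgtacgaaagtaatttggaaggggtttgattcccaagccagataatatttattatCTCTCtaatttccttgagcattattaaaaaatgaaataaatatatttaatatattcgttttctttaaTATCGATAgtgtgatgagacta
dati to lgs region, chr4:424772-424897: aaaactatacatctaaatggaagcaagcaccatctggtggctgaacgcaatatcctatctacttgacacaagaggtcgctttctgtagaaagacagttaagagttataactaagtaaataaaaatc
fuss upstream region, chr4:982891-983014: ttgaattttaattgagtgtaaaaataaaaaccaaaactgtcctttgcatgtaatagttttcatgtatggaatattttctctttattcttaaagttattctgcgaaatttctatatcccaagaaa
apolpp and Zyx summit, chr4:1064384-1064484: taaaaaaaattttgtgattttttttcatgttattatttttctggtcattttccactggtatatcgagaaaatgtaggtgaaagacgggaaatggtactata
Asator upstream summit, chr4:489459-489559: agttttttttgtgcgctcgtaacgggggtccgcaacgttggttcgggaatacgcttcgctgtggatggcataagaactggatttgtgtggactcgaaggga
The summit region of dati and the region at the ends of sv and Cals overlap annotated untranslated regions and are given by position only.

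Few members were bound. In the reproducible set 3 of 76 members (3.95%, exact 95% interval 0.822 to 11.1) were called bound at the promoter, against 17.4% of 13572 coding genes on the other 5 arms. The share over all 13648 coding genes was 17.3%. The bound members were PlexA, a semaphorin receptor of axon guidance, dati, which encodes a zinc-finger transcription factor, and apolpp, which encodes the main lipoprotein of the haemolymph. The larger set gave the same 3 members, beside 19.5% on the other arms and 19.4% over all genes. The set of replicate 1 gave 2 members (2.63%), PlexA and Sox102F, a Sox-family transcription factor, beside 15.6% on the other arms and 15.5% over all genes. The set of replicate 2 gave PlexA alone (1.32%), beside 13.6% on the other arms and 13.5% over all genes. PlexA was thus the 1 member called bound in all 4 sets.

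Counting summits in the whole gene and 1 kb around it added few members. In the reproducible set 4 members (5.26%, interval 1.45 to 12.9) had such a region, PlexA, dati, apolpp and Zyx, against 27.3% of genes on the other arms and 27.1% of all genes. Zyx encodes zyxin, a LIM-domain protein of cell adhesion sites and the actin cytoskeleton, and shared 1 region with apolpp, which it overlaps on the opposite strand. The larger set added Asator, a tau-tubulin kinase, for 5 members (6.58%) beside 29.9% on the other arms and 29.8% of all genes. Replicate 1 also gave 5 members, PlexA, Asator, Sox102F, sv and Cals, beside 24.2% on the other arms and 24.1% of all genes. Replicate 2 gave PlexA alone, beside 22.3% on the other arms and 22.1% of all genes. Over the 4 sets together 8 members (10.5%) had a region in or near the gene and 68 had none, against 32.4% with one on the other arms and 32.3% over all genes. A promoter call in any of the 4 sets was made for 4 members (5.26%), against 21.5% on the other arms and 21.4% over all genes.

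The scarcity was already present before the threshold. Only 3 members (3.95%) had even a candidate at the promoter in the reproducible list, the same 3 that were bound, against 74.7% of genes on the other arms and 74.3% of all genes. The larger list gave 3 members beside 72.5% on the other arms and 72.1% of all genes. The list of replicate 2 gave 2 members (2.63%) beside 56.9% on the other arms and 56.6% of all genes. The list of replicate 1 stood apart with 12 members (15.8%), beside 65.5% on the other arms and 65.2% of all genes. For a candidate in the gene or within 1 kb, the members numbered 7 (9.21%, interval 3.78 to 18.1) in the reproducible list, against 89.3% of genes on the other arms and 88.9% of all genes. They numbered 11 (14.5%) in the larger list, beside 91.3% on the other arms and 90.9% of all genes. They numbered 28 (36.8%) in the list of replicate 1, beside 88.1% on the other arms and 87.8% of all genes. They numbered 5 (6.58%) in the list of replicate 2, beside 85% on the other arms and 84.6% of all genes. In every list the interval of the chromosome 4 share lay below the shares of all 5 other arms.

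**Figure D1:**
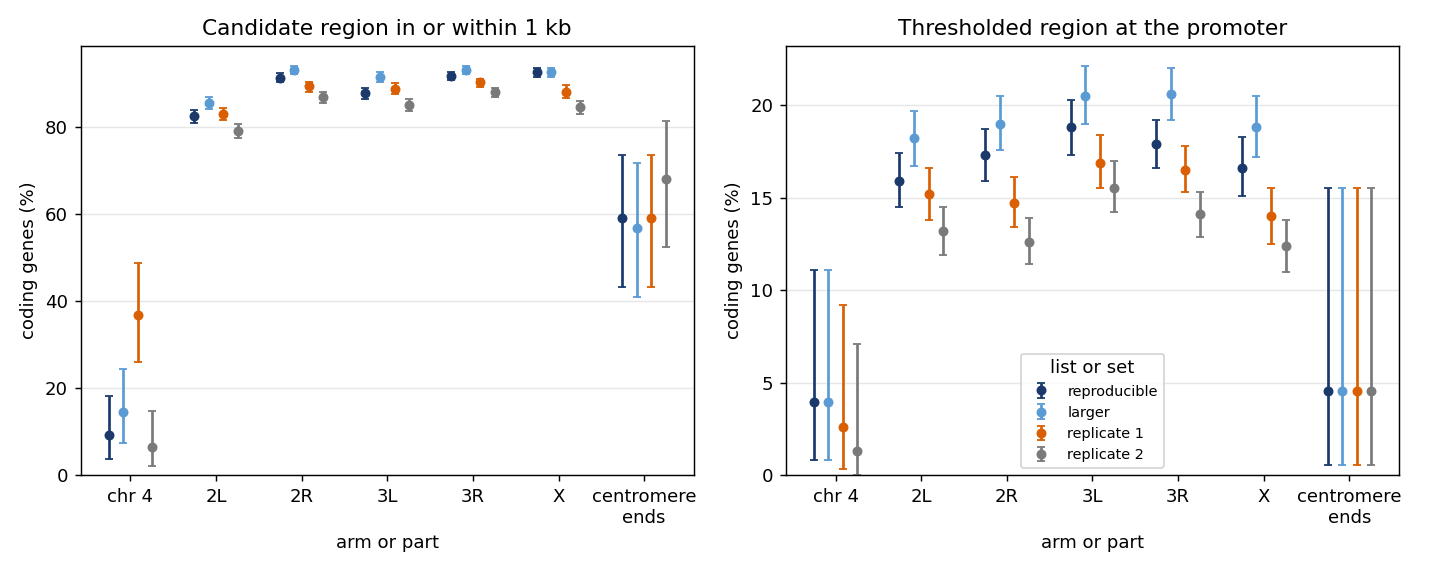
Share of coding genes (%) with a candidate in or within 1 kb of the gene (left) and with a thresholded region at the promoter (right), for chromosome 4, the other arms and the 1 Mb centromere ends of those arms. Points are shares and bars exact 95% binomial intervals, coloured by list or set; chromosome 4 is lowest of the arms in every list, at 9.21% in the reproducible list on the left, and its list of replicate 1 reaches 36.8%.

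Per length of sequence, chromosome 4 held 39 candidates in the reproducible list, or 28.93 per Mb, against 892.5 per Mb on the other arms. The other arms thus held candidates 30.85 times as densely. In the larger list the chromosome held 35.6 candidates per Mb, against 777 per Mb on the other arms. In the list of replicate 1 it held 102.4 per Mb, against 546.6 on the other arms, a ratio of the other arms to chromosome 4 of 5.338. In the list of replicate 2 it held 20.03 per Mb, against 530.4 on the other arms, a ratio of 26.48. The 2 replicates therefore listed 138 and 27 candidates on this chromosome, while their lists over the other arms were of similar size, with 72443 and 70296.

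**Figure D2:**
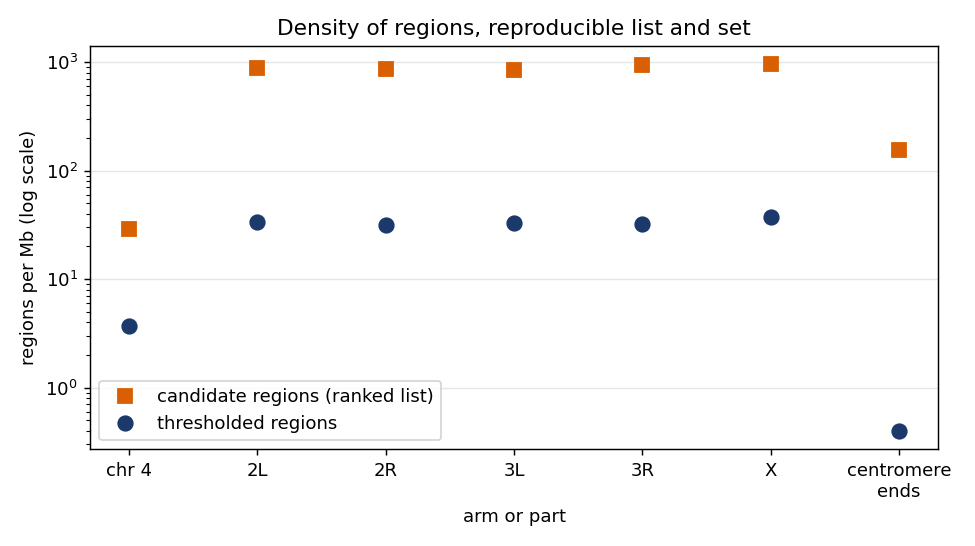
Candidates of the reproducible list and thresholded regions of the reproducible set per Mb (log scale), on chromosome 4, the other arms and the 1 Mb centromere ends. In this list and set, chromosome 4 has 28.93 candidates and 3.709 thresholded regions per Mb, against 892.5 and 33.46 over the other arms together.

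Thresholded regions were less scarce than candidates in the reproducible, larger and replicate 2 data, but not in replicate 1, where the ratio of the other arms to chromosome 4 was 5.482 for regions and 5.338 for candidates. The reproducible set held 5 regions on chromosome 4, or 3.709 per Mb, against 33.46 per Mb on the other arms, and the ratio of the other arms to chromosome 4 was 9.021. The larger set held 8 regions, the set of replicate 1 held 7 and that of replicate 2 held 3. Of the 39 candidates of the reproducible list, 12.8% were in the set (interval 4.3 to 27.4), against 3.75% of candidates on the other arms. Replicate 1 differed here as well, with 5.07% of candidates in its set on chromosome 4, against 5.21% on the other arms. Of the 7 members with a candidate in or near the gene in the reproducible list, 4 also had a region in the set (57.1%, interval 18.4 to 90.1). The share of such genes on the other arms, 30.5%, lies inside this interval, and Zyx and apolpp, among the 4, share 1 region. The share was 45.5% in the larger data (interval 16.7 to 76.6), against 32.8% on the other arms. It was the lower of the 2 in replicate 1, at 17.9% (interval 6.06 to 36.9) against 27.4%. It was also the lower in replicate 2, at 20% (1 of 5 members, interval 0.505 to 71.6) against 26.2%. Each of these intervals holds the share of the other arms, so no direction is read from them.

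The 1 Mb at the centromere end of each of the other 5 arms, whose chromatin is also largely heterochromatic, was set beside chromosome 4. These ends hold 44 coding genes. The share bound at the promoter in the reproducible set was 3.95% on chromosome 4 and 4.55% (2 genes) at the centromere ends. The share with a candidate in or near the gene in the reproducible list was 9.21% on chromosome 4 and 59.1% at the centromere ends. Candidates numbered 28.93 per Mb on chromosome 4 and 156.2 per Mb at the centromere ends in the reproducible list. Thresholded regions numbered 3.709 per Mb (5 regions) on chromosome 4 and 0.4 per Mb (2 regions) at the centromere ends in the reproducible set. Per Mb, chromosome 4 was thus the lower of the 2 for candidates and the higher for regions. Coding genes numbered 56.37 per Mb on chromosome 4 and 8.8 per Mb at the centromere ends, and the part of gene density in this was not tested. The share of candidates in the reproducible set was 12.8% on chromosome 4 and 0.256% (interval 0.031 to 0.922) at the centromere ends. The replicates differed in opposite directions in the 2 places. Replicates 1 and 2 listed 102.4 and 20.03 candidates per Mb on chromosome 4, and 42.8 and 174.6 at the centromere ends.

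Chromosome 4 also differed from the other arms in base composition and gene size. Its GC content was 35.25%, against 42.22% on the other arms, and transposable elements covered 24.77% of it, against 5.74% on the other arms. Soft-masked repeats covered 28.14% of chromosome 4, against 20.06% on the other arms and 42.78% of the centromere ends. Members had a median length of 10444 bp, against 2191 bp for genes on the other arms, so more sequence lay open to a summit in each member. Among genes of 10 kb or more, a candidate in or near the gene was listed for 12.8% of 39 members, against 96.3% of 1931 genes on the other arms. Among genes with a promoter GC under 35%, it was listed for 6.67% of 45 members, against 85.3% of 4664 genes on the other arms. A region at the promoter in the reproducible set was found for 7.69% of the members of 10 kb or more, against 24.1% of such genes on the other arms, and for 4.44% of the members with a promoter GC under 35%, against 18.5% on the other arms. These classes hold 5 and 3 members with a candidate, so each share rests on few genes. How far gene length, base composition, repeats and read mapping move these shares was not tested.

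Distances to the nearest summit gave the same picture. The median member lay 133806 bp from the nearest summit of the reproducible set, with quartiles at 54394 and 202125 bp. The median was 7666 bp on the other arms. At the centromere ends the distance was also long, with a median of 89650 bp and quartiles at 41786 and 1125258 bp. For candidates of the reproducible list the median was 61566 bp for members, against 189 bp on the other arms and 3840 bp at the centromere ends. In the list of replicate 1 it was 9078 bp for members, against 242.5 bp on the other arms.

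**Figure D3:**
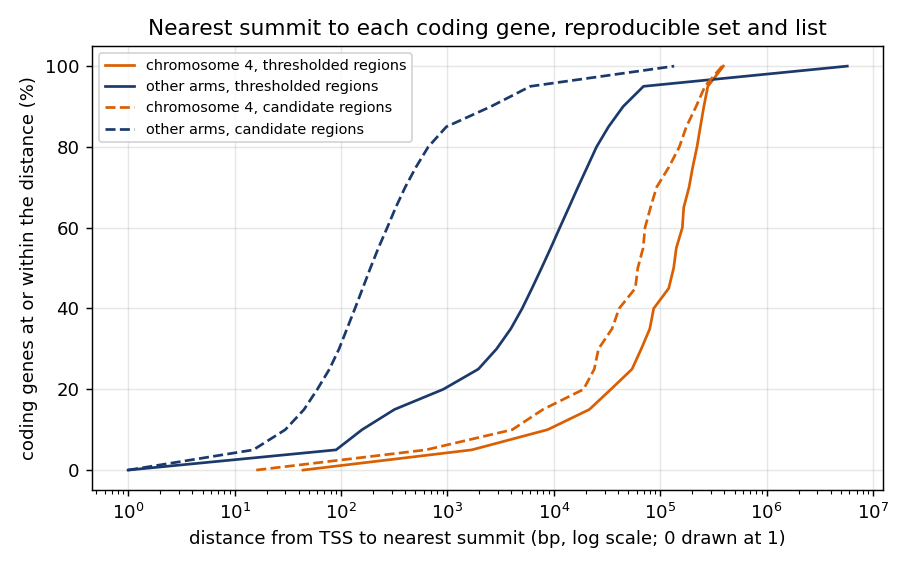
Percentage of coding genes whose TSS lies at or within a given distance (bp, log scale) of the nearest summit, for chromosome 4 and the other arms, with thresholded regions as solid lines and candidates as broken lines from the reproducible set and list. The chromosome 4 medians are 133806 bp for regions and 61566 bp for candidates, against 7666 and 189 bp on the other arms.

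In all, 11 separate regions of chromosome 4 were in at least 1 of the 4 sets. Of these, 6 lay in a member or within 1 kb of one and 3 were in all 4 sets. The authors' peak height, a score without a stated rescaling between lists, is given for each, and heights are compared by rank within a list. An exception is the ratio of the heights in the replicates, set below beside its median on the other arms. The highest region lay upstream of PlexA at chr4:1027200-1027392, with its summit at 1027288, 187 bp before the single annotated TSS. Its height was 372.5 in the reproducible and the larger set, 191.5 in replicate 1 and 180.2 in replicate 2. It ranked 329 of 4439 regions in the reproducible set, 380 of 3779 in replicate 1 and 299 of 3280 in replicate 2. The summit was at the same distance from the TSS in all 4 sets.

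The other 2 regions found in all 4 sets lay beyond 1 kb of any member. One, at chr4:424772-424897, lay in the space between dati and lgs, 12136 bp from lgs, which encodes the adaptor Legless of Wnt signalling. Its heights were 280.2 in the reproducible and larger sets, 144.6 in replicate 1 and 137.2 in replicate 2. It lay 1246 bp before a start site of the non-coding gene lncRNA:CR43437. The other, at chr4:982891-983014, lay 4461 bp before the nearest TSS of fuss, a gene of the Ski and Sno family of transcriptional co-regulators. Its heights were 207.1 in the reproducible and larger sets, 111.6 in replicate 1 and 87.31 in replicate 2. These 3 regions were 193, 126 and 124 bp wide, in the order PlexA, dati to lgs and fuss, while 344 bp was the commonest width of the reproducible set.

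The remaining 2 regions of the reproducible set were lower. The region at chr4:393194-393537 had its summit 44 bp inside a TSS of dati and a height of 68.75, at percentile 11.94 of the set. Its inputs were 38.33 in replicate 1 and 33.43 in replicate 2, and it was in neither replicate's own set. The region at chr4:1064262-1064605 lay inside both Zyx and apolpp, 472 bp before a TSS of apolpp, with a height of 87.92 at percentile 31.4. Its inputs were 36.84 in replicate 1 and 42.68 in replicate 2, and it too was in neither replicate's own set. It was a candidate in the list of replicate 1 with that height, but it had no candidate in the list of replicate 2, so its replicate 2 value comes from the reproducible list alone. The ratio of the replicate 1 to the replicate 2 input height ranged from 0.8633 at apolpp to 1.278 upstream of fuss, and its median over 4434 regions of the other arms was 1.236. Over the 5 chromosome 4 regions of the reproducible set, the median height percentile was 78.58, with 3 regions above and 2 below the middle of the set.

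**Figure D4:**
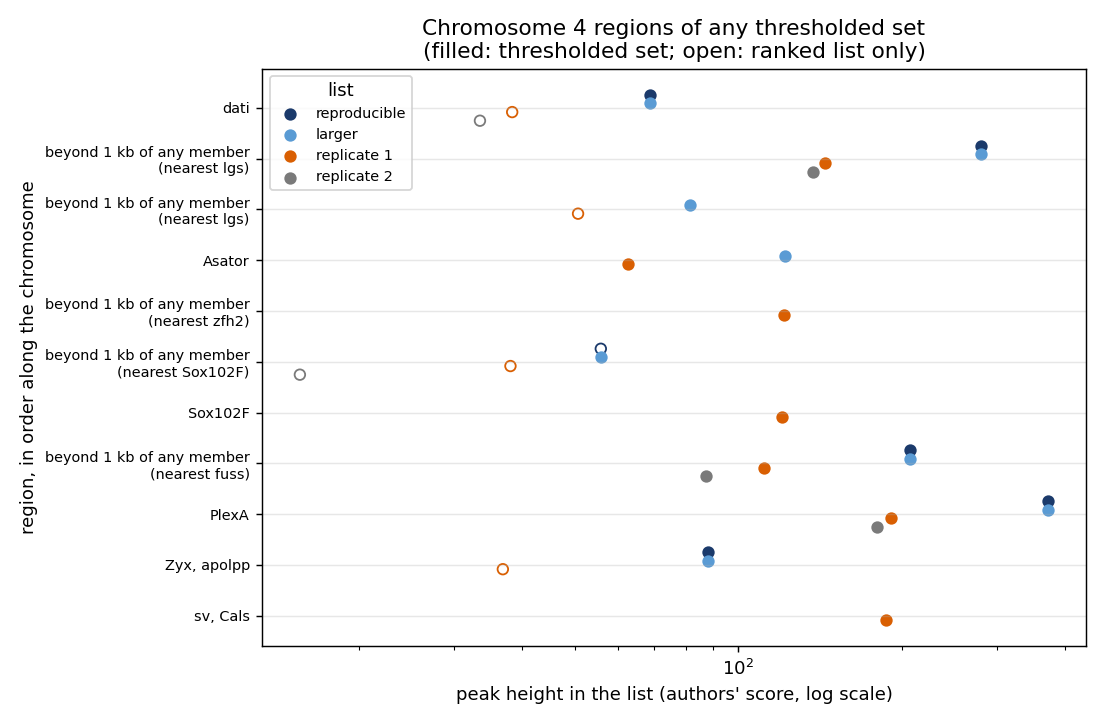
Peak height (authors' score, log scale) in each list of the 11 chromosome 4 regions that were in any thresholded set, in order along the chromosome and named by the member within 1 kb or the nearest member. Filled points were in the thresholded set of that list and open points in the ranked list alone; the PlexA region is the highest at 372.5, and the regions at sv and Cals, at a Sox102F start site and upstream of zfh2 have a point from replicate 1 alone.

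The other 6 regions rested on replicate 1 or the larger set. Upstream of Asator, 515 bp before a TSS and just outside the promoter window, a region at chr4:489337-489680 had a height of 122.1 in the larger set and 62.76 in replicate 1. It had no candidate in the reproducible list or that of replicate 2. In the larger set alone, a region at chr4:434288-434631 lay inside an annotated transposable element with a height of 81.51. It was a candidate of 50.69 in the list of replicate 1 and had none in the reproducible or replicate 2 list. Also in no set but the larger, a region at chr4:798482-798825, 1782 bp from Sox102F, had a height of 55.83. It was a candidate in the other lists as well, at 55.83 in the reproducible list, 38.05 in replicate 1 and 15.57 in replicate 2.

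The other 3 were in the set of replicate 1 and in no other list, even as a candidate. The region at chr4:1113237-1113417 had a height of 187.1 and ranked 391 of 3779. It lay in 3′ untranslated sequence where the ends of sv, the Pax-family transcription factor Shaven, and Cals, the calsyntenin gene, overlap on opposite strands. The region at chr4:807400-807735 lay 221 bp before a TSS of Sox102F with a height of 120.6. The region at chr4:497785-498120 lay 3857 bp before the TSS of zfh2 with a height of 121.7. All 3 stood at percentile 76.42 or higher of the replicate 1 set.

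Recurrence across lists was low for replicate 1 on this chromosome. Of its 7 chromosome 4 regions, 3 (42.86%) overlapped a candidate of the reproducible list, against 97.03% of its regions on the other arms. The overlap with the candidates of replicate 2 was 42.86% on chromosome 4, against 92.95% on the other arms. The 3 chromosome 4 regions of replicate 2 all overlapped regions of the other 3 sets. Depth and read mapping in replicate 1 are not given in the files, and their part in this was not tested.

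Candidates were listed for 28 members (36.8%) in at least 1 list and for 48 members in none, against 96.2% with one on the other arms and 95.9% over all genes. All 28 had one in the list of replicate 1, so the other lists added no member. Of the 28, 17 had a candidate in the list of replicate 1 alone and 5 had one in all 4 lists (dati, lgs, bt, Sox102F and PlexA). dati held 9, 8, 11 and 4 candidates in the reproducible, larger, replicate 1 and replicate 2 lists. Zyx and apolpp each held 12 in the list of replicate 1, none in that of replicate 2 and 3 in the reproducible list. Because these genes overlap, a candidate in or near both was counted for each, so their counts are not of separate candidates. Members with a candidate had a median length of 12096 bp, against 9128 bp for members with none. By position, 24 members lie within the first 358917 bp, up to the end of the calcium pump gene PMCA. No candidate fell there in the reproducible, larger or replicate 2 list, and 12 fell there in that of replicate 1.

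**Figure D5:**
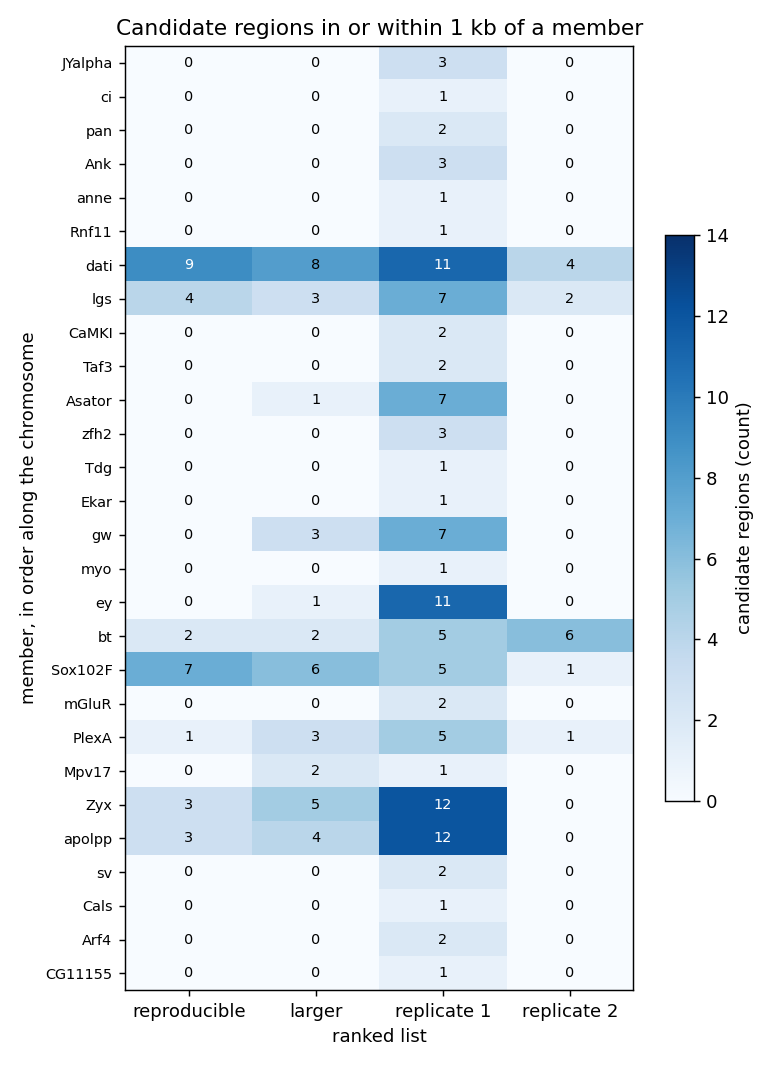
Number of candidates in or within 1 kb of each of the 28 members with at least 1 candidate in any list, by ranked list and in order along the chromosome. The column of replicate 1 is filled for all 28 members, and 5 members (dati, lgs, bt, Sox102F and PlexA) have a count above 0 in all 4 columns.

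The members are given by role below, with groups too small for a share to tell one role from another. Over all 76 members, 3 were bound at the promoter in the reproducible set (17.3% over all genes), 8 had a region in or near the gene in any set (32.3% over all genes) and 28 had a candidate in any list (95.9% over all genes). Among 18 transcription factors and nuclear regulators, 1 (dati) was bound at the promoter in the reproducible set, 3 had a region in or near the gene in any set, and 9 had a candidate in any list. ci, the effector of Hedgehog signalling, had 1 candidate, in the list of replicate 1, with a height of 22.6. pan, the TCF factor of Wnt signalling, had 2 there with a highest value of 37.14. lgs had candidates in all lists, with highest values of 36.25, 40.12, 33.95 and 17.59 in the reproducible, larger, replicate 1 and replicate 2 lists. The Pax6 gene ey had 11 candidates in replicate 1, up to 25.37, and 1 of 3.804 in the larger list. Its fellow Pax6 gene toy had no candidate in any list, and its TSS lay 6775 bp from the fuss upstream summit of the reproducible set. zfh2, a zinc-finger homeodomain factor, had 3 candidates in replicate 1, up to 19.21. pho, a DNA-binding Polycomb protein, and Mitf, a regulator of lysosomal genes, had none in any list.

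Among 12 members for ligands, receptors and signalling, PlexA was the 1 bound in any set, and 2 had a candidate in any list. The related receptor gene PlexB had no candidate in any list, with its TSS 349588 bp from the nearest summit of the reproducible set. The receptor tyrosine kinase gene Eph and its ligand gene Ephrin had no candidate in any list either. Among 9 neuronal and synaptic members, 3 had a candidate in any list and 1, Cals, a region in any set. CaMKII, a calcium-dependent kinase of synapses, and unc-13, which primes synaptic vesicles, had no candidate.

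Among 4 members for RNA and protein turnover, gw, the GW182 protein of microRNA silencing, had 3 candidates up to 37.44 in the larger list and 7 up to 25 in replicate 1. The translational repressor gene 4E-T and Rad23, which carries ubiquitinated proteins to the proteasome, had none. Among 8 members for muscle, membrane, transport and metabolism, 1 (apolpp) was bound at the promoter in the reproducible set and 4 had a candidate in any list. bt, the giant muscle protein projectin and the longest member at 52075 bp, had candidates in all 4 lists but no region in any set, with highest values of 15.77, 47.62, 24.8 and 16.65 in the reproducible, larger, replicate 1 and replicate 2 lists. The 25 members with no role given included 1 with a region in or near the gene in the reproducible set (Zyx) and 9 with a candidate in any list.

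In sequence, none of the 11 regions held the E2F consensus, counted as TTNNCGC on either strand with each N a C or a G. Among the 4434 reproducible regions of the other arms, 14.79% held it. Those regions had more sequence to match, with a median width of 344 bp, against 193 bp on chromosome 4. Within 50 bp of the summit, 4.172% of the regions of the other arms held the consensus. With 0 of 5 reproducible regions on chromosome 4, a difference was not detectable at this number of regions. Promoter sequence was read from 250 bp before to 50 bp after the 5′-most TSS of each gene, whereas a gene was called bound at any of its TSSs. These promoters held the consensus in 3 of 76 members (3.947%), against 14.24% of genes on the other arms. The share was low at the centromere ends as well, at 3 of 44 genes (6.818%). The 3 members were anne, dpr7 and PMCA, and none was bound. On the other arms the promoters with the consensus were bound in 20.1% of cases and those without in 16.9%.

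The DRE was in 7 member promoters (9.211%), against 9.085% on the other arms. PlexA was the 1 of the 7 bound in any set, beside 21.4% of all genes with a promoter call in any set. The share bound among all promoters with the DRE was not counted, so a link between the DRE and binding was not tested. The DRE letters, which read the same on both strands, lay 83 bp from the PlexA summit, and GAGAG lay 16 bp from it, as capitalised in the sequence above. Among reproducible regions of the other arms, 4.578% held the DRE and 34.26% held GAGAG. Among promoters, GAGAG was in 25% of those of members, against 30.11% on the other arms. The core GGTCACAC of core promoter Motif 1 was in 5.263% of member promoters, apolpp among them, against 7.574% on the other arms. TTTGAA, the cell cycle genes homology region, was in 46.05% of member promoters, against 40.6% on the other arms. The median GC of the 50 bp on each side of the summit was 31.68% both in the 5 chromosome 4 regions and on the other arms.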

How the data were processed

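E2f1-eGFP ChIP-seq of 2 replicates of whole embryos was deposited as 4 ranked lists and 4 thresholded sets in dm6. Peak heights are a score made by the authors, with no stated rescaling. The −log10 global IDR (ceiling 5) and the summit offset were also deposited by the authors. The IDR limit of the sets was 0.01, as the deposited values show. Fragments were sonicated to 200 to 800 bp, per the labels. The aligner and peak caller were not given in the sources used here. Genes and TSSs came from Ensembl release 115 (BDGP6.54), without transposable elements, and sequence from RefSeq. Python 3.11.15, pandas 2.3.3 and scipy 1.17.1 were used, and the calling functions were tested on simulated data. The reproducible list was identified by its inputs, 54.83% of the first being in the list of replicate 1 and 53.35% of the second in that of replicate 2. No statistical test was run, since there is 1 group.

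Members and lists were chosen with earlier results of these data known. Genes were named where called bound at a promoter in any set, where a reproducible region lay in or within 1 kb, among the 10 with the highest promoter candidate (3 existed), or from a list of genes given whatever their values. Asator, Cals, fuss, PMCA, MED26, Cadps, anne and dpr7 were named after their values were seen. Alternatives were the larger set, each replicate's set, an IDR of 0.001, other promoter, gene and summit windows, whole regions, and no symbol rule; genes of any type were added after seeing the data.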

Additional observations from a re-analysis of the deposited data

How the results depend on the processing

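Each alternative left the members bound at the promoter at 1 to 4. With the replicate sets alone, the members bound at the promoter numbered 1 to 2, against 3 in the reproducible set, the members near a region 1 to 5, against 4, the regions near a member 1 to 4, against 3, and these regions per Mb 0.7418 to 2.967, against 2.225. The low end of each came from the set of replicate 2, which leaves out replicate 1. In that set PlexA was the only member with a region in or near the gene. An IDR of 0.001 left 1 member bound at the promoter, 1 near a region and 1 region near a member, or 0.7418 per Mb, all at PlexA. Counting every region on the chromosome gave 5 regions, or 3.709 per Mb. The median height percentile of the regions near members was 31.4 in the reproducible set and 49.56 in the larger set. It was 83.05 to 90.91 in the replicate sets and 87.65 at an IDR of 0.001. The values of replicate 2 and of an IDR of 0.001 each rest on 1 region, that of PlexA. The share of chromosome 4 candidates in the set was 12.8% in the reproducible list, against 3.75% on the other arms, but in replicate 1 it was 5.07%, against 5.21% on the other arms. Of all values under the alternatives, 13 moved past the limits set for a change and 46 did not. The 46 include some of the values above, and the limits were wide for shares of so few regions. The share of regions near members at a promoter was 100% in the reproducible set and 50% in that of replicate 1, which counted as no change. Genes of any type, chosen after seeing the data, gave 3 regions. No paired analysis was possible because the samples form 1 group and no result comes from a test.

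The regions near members are few, so 1 region moves each share. Depth is unknown, and heights carry no error. The replicate sets hold regions of the same libraries as the reproducible set and are not independent of it.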

Other observations

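A candidate at chr4:1318934-1319277, beyond the last member Cadps, passed the IDR limit of 0.01 in 3 of the 4 lists but was in no thresholded set. Its height was 156.1 in the reproducible and larger lists, 85.41 in replicate 1 and 80.78 in replicate 2. Its −log10 IDR was 4.375, 4.222, 3.589 and 1.877 in the reproducible, larger, replicate 1 and replicate 2 lists. Over the genome, 103 of 4542 candidates past the limit (2.268%) were left out of the reproducible set in the same way. No reason for this is stated in the labels.

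The space of 41351 bp between dati and lgs held 20 candidates in the list of replicate 1, 7 in the larger list and 2 in each of the reproducible and replicate 2 lists. The space of 11457 bp between MED26 and Sox102F held 6 of the 39 reproducible candidates. An annotated transposable element held the summit for 20.51% of chromosome 4 candidates in the reproducible list and 18.75% in the larger list. The shares for replicates 1 and 2 were 20.29% and 37.04%, the last being 10 of 27 candidates. Such elements cover 24.77% of the chromosome, so only the replicate 2 share lay above this cover, and it rests on few candidates.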
